A study of Homo sapiens with 16 samples.

Results

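The Eph receptors and the ephrins are partners in signalling between touching cells, and 10 of their genes were followed here among the 42351 genes of a count table made from lung cancer cells given hepatocyte growth factor (HGF). The members were taken by gene symbol, with earlier results of these data known. They are the receptors EPHA1, EPHA2, EPHA4, EPHB2, EPHB3 and EPHB4 and the ligands EFNA1, EFNA5, EFNB1 and EFNB2. 16 polyA RNA libraries fall into 8 conditions of 2 libraries each. A549 cells, labelled wt MET, and NCI-H596 cells, an adenosquamous line labelled MET delta 14 exon (MET∆14, a MET receptor whose transcript skips the exon that codes for the juxtamembrane region), were deprived of serum for 12 h as the labels state it, a time the study's methods give as longer. HGF, the ligand of MET, was then present for 3, 6 or 12 h, and the 0 h libraries received none. The design asks how the response to HGF runs over time and whether it differs between the MET∆14 and the wt MET cells. Each MET status stands on a single cell line, so MET status and line cannot be told apart, and neither can HGF and time since the 0 h libraries are the sole untreated ones. The study calls the libraries of a condition biological duplicates. The p-values rest on the spread between duplicates, estimated over all 8 conditions together and not for each condition. The name A549 is that of the labels, while the study's text names EKVX as its wt MET lung line and does not name A549, so which line the wt MET values describe was not settled here.

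Eph receptors are receptor tyrosine kinases. The A ephrins are tethered to the membrane by a lipid anchor and the B ephrins span it, so that binding needs cell contact and can signal into both cells. The outcome, adhesion or repulsion, serves to sort cells and to guide migration. In epithelial and lung tumours EPHA2 is the best studied member. It can be activated by EFNA1 on a neighbouring cell, and without a ligand it can be phosphorylated by AKT and promote motility.

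Library totals ran from 10158590 to 23909304 counts. In 15 of 16 libraries the closest library was the other one of the same condition. The exception was replicate 2 of MET∆14 cells at 12 h, also the shallowest library, which lay nearer to a 6 h library (r = 0.987) than to its own replicate (r = 0.982). Levels are given as CPM, counts scaled to library size after TMM scaling, and between genes as CPM per kilobase of exon (RPKM). Before HGF the 2 lines differed in markers of line and tissue. CDKN2A, lost in A549, had 0 CPM in wt MET and 143 CPM in MET∆14 cells. The squamous keratin KRT5 had 0.0715 and 2141 CPM and the squamous factor TP63 had 0.643 and 163 CPM, in the same order. The lung lineage factor NKX2-1 was near 0 in both lines (0.817 and 0 CPM), and MET itself stood at 1240 CPM in wt MET and 370 CPM in MET∆14 cells. MTAP, also chosen as a gene lost in A549, and the epithelial markers KRT8, KRT18 and EPCAM are not given here. CDKN2A alone does not settle which line the wt MET cells are.

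Before HGF, most members differed in level between the lines, as did most of the genes tested. 9 of the 10 members passed an adjusted p of 0.05 between the lines in edgeR's quasi-likelihood test, 7 of them higher in MET∆14 cells, but so did 80.2% of the 15067 genes tested (40.6% higher and 39.6% lower). EPHB3 and EFNB1 stood furthest apart. EPHB3, a receptor of the B ephrins, had 1.37 and 1.91 CPM in the wt MET libraries and 80.0 and 78.5 CPM in the MET∆14 libraries, a log2 difference of 5.58 ± 0.17 (SE, adjusted p = 3.3e-13). EFNB1, a B ephrin that spans the membrane, had 10.1 and 9.68 CPM against 208 and 216 CPM, a log2 difference of 4.42 ± 0.11 (adjusted p = 7.11e-14). EPHA4, which binds ephrins of both classes, EFNA1 and EFNB2 were higher in MET∆14 cells by 2.72 ± 0.18, 2.18 ± 0.16 and 1.94 ± 0.13 on the log2 scale (adjusted p = 1.92e-09, 3.48e-09 and 1.71e-09). EPHB4, known as the receptor of EFNB2, was higher by 0.68 ± 0.11 (adjusted p = 4.03e-05).

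EPHA1 had 0 counts in all 8 wt MET libraries. It was low but present in MET∆14 cells, at 4.11 and 3.82 CPM at 0 h. Against a floor of 3 counts in a wt MET library (0.217 CPM) its level was at least 18.3-fold higher in MET∆14 cells. A count of 0 limits transcripts sampled at this depth and covers counting error only. EPHA2 and EFNA5 were the members lower in MET∆14 cells, by log2 differences of -1.08 ± 0.09 and -0.85 ± 0.10 (adjusted p = 3.01e-08 and 1.08e-06). EPHB2 did not pass the test between the lines (43.8 and 42.1 CPM in wt MET, 41.9 and 41.9 CPM in MET∆14 cells, log2 difference -0.04 ± 0.10, adjusted p = 0.764), and its difference turned to 0.05 when genes with at least 10 counts in every library alone were kept.

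Per length, EPHA2 was the most abundant member in both lines at 0 h, with 184 ± 16.7 RPKM in wt MET and 87.1 ± 4.93 RPKM in MET∆14 cells (SD, n = 2). In wt MET cells the next member stood far below, EFNA5 at 8.01 ± 0.0191 RPKM, followed by EPHB4 (7.40 ± 1.15), EFNA1 (4.96 ± 0.268), EFNB2 (3.94 ± 1.02), EPHB2 (3.43 ± 0.0924), EFNB1 (2.99 ± 0.0794), EPHA4 (0.473 ± 0.0211), EPHB3 (0.362 ± 0.0834) and EPHA1 at 0. Within that order EFNA5 and EPHB4, EFNA1 and EFNB2, and EFNB2 and both EPHB2 and EFNB1 lay no further apart than the larger of their SDs. In MET∆14 cells EPHA2 was followed by EFNB1 (64.2 ± 1.52 RPKM), EFNA1 (22.6 ± 3.26), EPHB3 (17.5 ± 0.234), EFNB2 (15.2 ± 0.324), EPHB4 (11.9 ± 0.0596), EFNA5 (4.45 ± 0.329), EPHB2 (3.35 ± 0.000483), EPHA4 (3.12 ± 0.132) and EPHA1 (0.844 ± 0.0424). All neighbours in the MET∆14 order were further apart than the larger of their SDs. Both orders depend on the length used. Per kilobase of the longest transcript EPHB4 stood above EFNA5 in wt MET cells (9.42 and 8.55 RPKM), and in MET∆14 cells EFNB2 and EPHB4 nearly coincided (15.2 and 15.1 RPKM), as did EPHB2 and EPHA4 (3.797 and 3.709 RPKM). EPHB3, the lowest of the detected members in wt MET cells, thus stood above EFNB2 and EPHB4 in MET∆14 cells, as the plot of levels at 0 h shows.

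**Figure D1:**
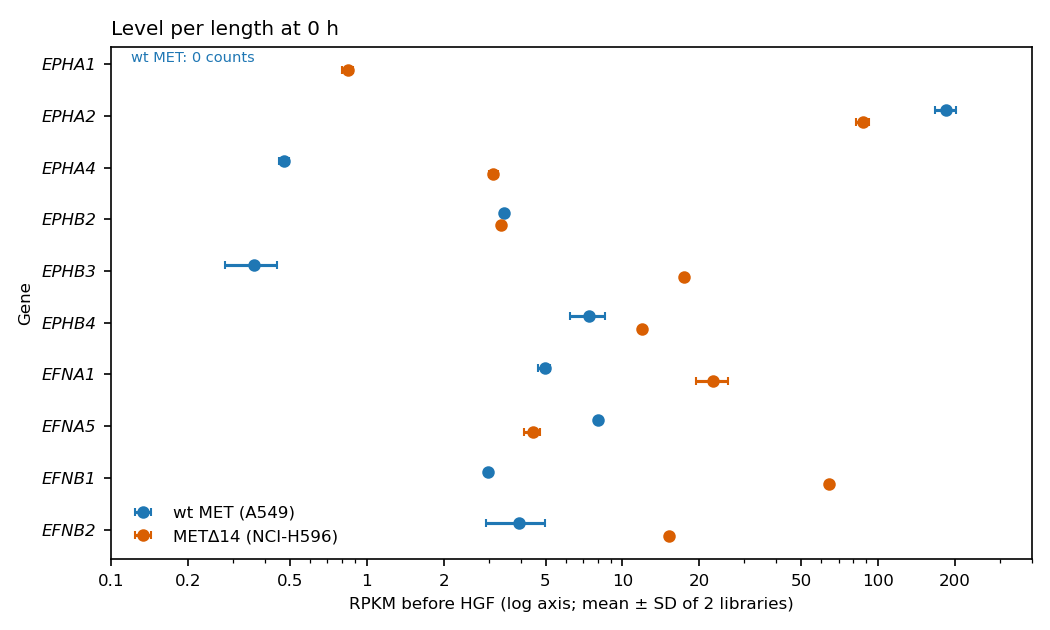
Level per length of the 10 members before HGF (RPKM on a log axis, points are means and bars SDs of 2 libraries, wt MET in blue and MET∆14 in orange). EPHA2 lies furthest right in both lines, EFNB1 moves from 2.99 to 64.2 RPKM and EPHB3 from 0.362 to 17.5 RPKM between the lines, and EPHB2 nearly coincides.

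Most members passed the test against 0 h in both lines at 6 h. At 12 h more passed in wt MET than in MET∆14 cells, where the number depended on whether replicate 1 was kept. The direct test of the difference between the lines at 12 h, given below, called 4 members, beside 24% of all genes. In wt MET cells 6 members passed the test against 0 h at 3 h (4 higher, 2 lower), beside 17.4% of all tested genes (10.3% higher, 7.16% lower), 8 at 6 h (5 higher, 3 lower), beside 34.2% (16.4% and 17.8%), and 8 at 12 h (4 higher, 4 lower), beside 35.1% (16.9% and 18.2%). In MET∆14 cells 6 passed at 3 h (3 higher, 3 lower), beside 31.7% of all genes (15.5% higher, 16.1% lower), 7 at 6 h (3 higher, 4 lower), beside 44.1% (21.6% and 22.5%), and 2 at 12 h (1 higher, 1 lower), beside 38.3% (18.3% and 20.1%). The median log2 change over the members with a fold was 0.40, 0.63 and 0.12 at 3, 6 and 12 h in wt MET and -0.19, -0.24 and 0.02 in MET∆14 cells, against -0.04, -0.05 and -0.00188 in wt MET and -0.05, -0.04 and -0.02 in MET∆14 cells over all genes tested. EPHA2 and EFNB2 rose and EFNA5 fell in both lines at 3 and 6 h. EFNA1 passed the test at 3 and 6 h in both lines with opposite signs. Over the 3 times together 9 members passed in wt MET cells, beside 40.3% of all genes, and 6 in MET∆14 cells, beside 54.1%. The comparisons of a line share its 0 h libraries.

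**Figure D2:**
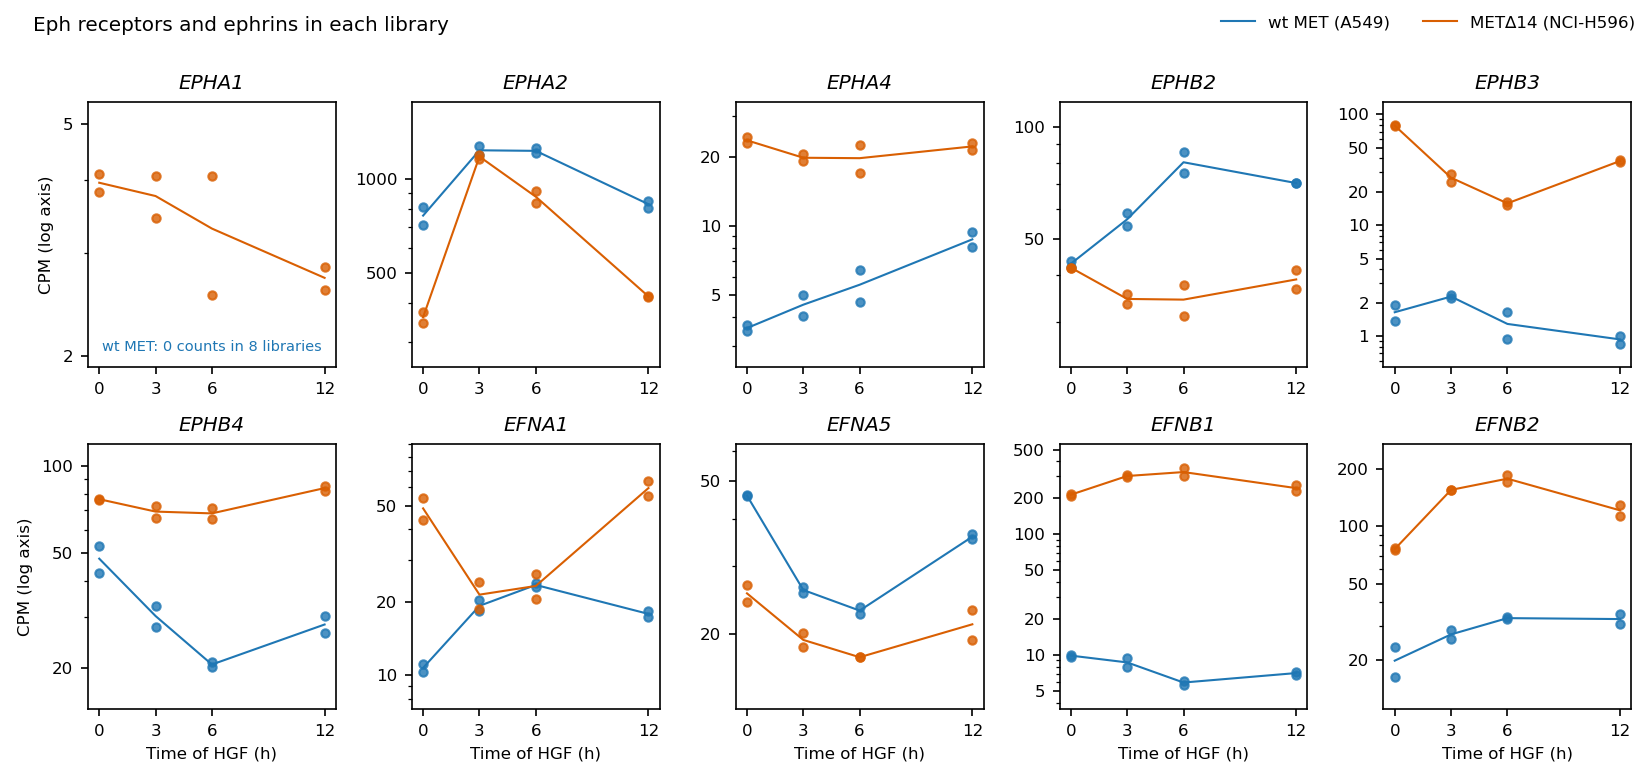
CPM of each member in every library over the time of HGF (log axis that differs between panels, points are libraries, lines join the means of 2, wt MET in blue and MET∆14 in orange). EPHA2 lies between 1163 and 1276 CPM at 3 h in both lines, EPHB3 dips to 15.2 and 16.3 CPM at 6 h in MET∆14 cells, and the EFNA1 curves meet at 3 and 6 h.

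EPHA2 had the largest rise of any member, at 3 h in MET∆14 cells. The wt MET libraries had 714 and 812.5 CPM at 0 h, 1276 and 1196 CPM at 3 h, 1254 and 1208 CPM at 6 h, and 852 and 808 CPM at 12 h. The 3 and 6 h libraries lay above all others and those of 12 h overlapped with 0 h. Its log2 change was 0.70 ± 0.09 at 3 h (adjusted p = 0.000101), 0.69 ± 0.09 at 6 h (adjusted p = 4.88e-05) and 0.12 ± 0.09 at 12 h (adjusted p = 0.333). EPHA2 in MET∆14 cells had 346 and 375 CPM at 0 h, 1197 and 1163 CPM at 3 h, 838 and 917 CPM at 6 h, and 418 and 422 CPM at 12 h. No time overlapped with 0 h, and the level came down step by step after 3 h. Its log2 change there was 1.71 ± 0.09 at 3 h (adjusted p = 1.03e-08), 1.28 ± 0.09 at 6 h (adjusted p = 6.16e-08) and 0.22 ± 0.09 at 12 h (adjusted p = 0.0725). The fall from 6 to 12 h passed the test in both lines, at -0.57 ± 0.09 in wt MET (adjusted p = 0.00101) and -1.06 ± 0.09 in MET∆14 cells (adjusted p = 7.17e-06). Its fall from 3 to 6 h in MET∆14 cells also passed (-0.43 ± 0.09, adjusted p = 0.00847), but not without replicate 1 or 2 at 3 h or replicate 1 at 6 h (adjusted p 0.053 to 0.0932). The 12 h value of MET∆14 cells passed on leaving out replicate 1 at 12 h (adjusted p = 0.0493) and in DESeq2 (0.0137). EPHA2 lies at chr1:16124337-16156069 on the minus strand of hg38.

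Among the B class receptors, EPHB3 (chr3:184561785-184582408, plus strand) showed the deepest fall. Its level in MET∆14 cells went from 80.0 and 78.5 CPM at 0 h to 24.4 and 29.3 CPM at 3 h and 15.2 and 16.3 CPM at 6 h, and stood at 38.5 and 37.4 CPM at 12 h. No 2 times overlapped. Its log2 change against 0 h was -1.56 ± 0.12 at 3 h (adjusted p = 2.18e-07), -2.33 ± 0.13 at 6 h (adjusted p = 4.43e-09) and -1.06 ± 0.12 at 12 h (adjusted p = 7.98e-06), with a fall of -0.77 ± 0.13 from 3 to 6 h (adjusted p = 0.00172) and a rise of 1.27 ± 0.13 from 6 to 12 h (adjusted p = 2.1e-05). EPHB3 in wt MET cells rested on 14 to 33 counts a library and lay between 0.857 and 2.34 CPM. Its log2 change there was 0.46 ± 0.26 and -0.33 ± 0.28 at 3 and 6 h (adjusted p = 0.256 and 0.426), the latter turning to 0.01 without replicate 2 at 6 h. The value at 12 h, -0.83 ± 0.29, passed (adjusted p = 0.0402), and was lost on leaving out any of 7 libraries, which were replicate 2 at 0 h, the 3 h and the 12 h libraries of wt MET cells and the 0 h libraries of MET∆14 cells (adjusted p 0.05 to 0.315), and also in DESeq2 (0.0605) and with each line fitted alone (0.0816).

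EPHB2 (chr1:22710839-22921500, plus strand) and EPHB4 (chr7:100802565-100827523, minus strand) moved in wt MET cells, in opposite directions. EPHB2 had 43.8 and 42.1 CPM at 0 h, 58.8 and 54.1 CPM at 3 h, 75.2 and 85.3 CPM at 6 h, and 70.6 and 70.6 CPM at 12 h in wt MET cells. All later libraries lay above those of 0 h. EPHB2 had a log2 change of 0.40 ± 0.10 at 3 h (adjusted p = 0.0152), 0.90 ± 0.10 at 6 h (adjusted p = 1.12e-05) and 0.72 ± 0.10 at 12 h (adjusted p = 0.000105). The 3 h call was lost without replicate 1 or 2 at 0 h or replicate 1 at 3 h (adjusted p 0.0571 to 0.105). EPHB2 ranged in MET∆14 cells from 31.1 to 41.9 CPM. Its change of -0.28 ± 0.10 at 6 h passed (adjusted p = 0.0419) but not in DESeq2 (0.0602), without a filter on low counts or with each line fitted alone (0.121 at most), nor without either library at 0 h, replicate 1 at 6 h, replicate 1 at 0 h in wt MET cells or either 12 h library of wt MET cells (0.0501 to 0.326).

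EPHB4 had 52.9 and 42.4 CPM at 0 h in wt MET cells, 32.7 and 27.6 CPM at 3 h, 20.1 and 20.9 CPM at 6 h, and 26.3 and 30.1 CPM at 12 h. The lowest value at 0 h was above every later one. EPHB4 had a log2 change of -0.66 ± 0.12 at 3 h (adjusted p = 0.00122), -1.22 ± 0.12 at 6 h (adjusted p = 3.2e-06) and -0.76 ± 0.12 at 12 h (adjusted p = 0.000177). EPHB4 stayed in MET∆14 cells between 65.1 and 85.2 CPM and passed at no time (log2 changes of -0.14, -0.16 and 0.13, adjusted p = 0.359, 0.252 and 0.379). The steps from 3 to 6 h in wt MET cells passed for EPHB2 (0.51 ± 0.10, adjusted p = 0.0123) and EPHB4 (-0.56 ± 0.12, adjusted p = 0.0217). The first was lost without either 3 h library or replicate 2 at 6 h, the second without replicate 1 at 3 h or either 6 h library (adjusted p up to 0.222 and 0.268). EPHB4 rose again from 6 to 12 h (0.46 ± 0.12, adjusted p = 0.024), a call lost without any one of the 4 libraries compared (adjusted p 0.0594 to 0.228). Comparisons of neighbouring times called 3.1% of all genes from 3 to 6 h and 11.6% from 6 to 12 h in wt MET cells, and 9.77% and 18.6% in MET∆14 cells. Of the members, 3 and 4 passed in wt MET and 2 and 5 in MET∆14 cells.

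The other A class receptors, EPHA4 (chr2:221418027-221574202, minus strand) and EPHA1 (chr7:143390289-143408856, minus strand), were scarcer. EPHA4 climbed in wt MET cells from 3.69 and 3.46 CPM at 0 h through 5.01 and 4.04 CPM at 3 h and 6.41 and 4.64 CPM at 6 h to 8.10 and 9.35 CPM at 12 h. The ranges at 3 and 6 h overlapped with each other, and those at 12 h lay above all others. EPHA4 had a log2 change of 0.35 ± 0.22 at 3 h (adjusted p = 0.323), 0.63 ± 0.21 at 6 h (adjusted p = 0.0311) and 1.28 ± 0.20 at 12 h (adjusted p = 0.000203). The 6 h call was lost without either 0 h library or replicate 1 at 6 h (adjusted p 0.0932 to 0.281). A further rise of 0.64 ± 0.18 from 6 to 12 h passed (adjusted p = 0.0323) and was lost without replicate 2 at 6 h, either 12 h library, or either 0 h or 3 h library of MET∆14 cells (0.0543 to 0.333). EPHA4 lay in MET∆14 cells between 16.9 and 24.3 CPM and passed at no time (adjusted p = 0.228, 0.201 and 0.7), although the 6 h change reached -0.49 without replicate 2 at 6 h (adjusted p = 0.0473). EPHA1, at 2.54 to 4.11 CPM in MET∆14 cells, passed at no time (log2 changes of -0.08, -0.23 and -0.53, adjusted p = 0.863, 0.538 and 0.17). The first became 0.04 without replicate 2 at 3 h, and the second 0.03 without replicate 1 at 6 h.

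EFNA1, an A ephrin and a ligand of EPHA2, moved in opposite directions in the 2 lines at 3 and 6 h. The wt MET libraries had 11.1 and 10.3 CPM at 0 h, 20.4 and 18.3 CPM at 3 h, 24.1 and 23.1 CPM at 6 h, and 17.5 and 18.4 CPM at 12 h. Every library with HGF was above those without. The log2 change was 0.85 ± 0.17 at 3 h (adjusted p = 0.00217), 1.14 ± 0.16 at 6 h (adjusted p = 8.28e-05) and 0.74 ± 0.16 at 12 h (adjusted p = 0.00277). EFNA1 in MET∆14 cells had 53.9 and 43.9 CPM at 0 h, 18.7 and 24.3 CPM at 3 h, 20.6 and 26.2 CPM at 6 h, and 55.0 and 63.6 CPM at 12 h. The 3 and 6 h libraries were all below 0 h and the 12 h libraries all above. Against 0 h the log2 change was -1.17 ± 0.14 at 3 h (adjusted p = 1.94e-05), -1.05 ± 0.14 at 6 h (adjusted p = 2.88e-05) and 0.28 ± 0.14 at 12 h (adjusted p = 0.125). The rise from 6 to 12 h was 1.33 ± 0.14 (adjusted p = 3.4e-05). The 12 h value passed without replicate 1 at 12 h (0.38, adjusted p = 0.0444). EFNA1 lies at chr1:155127876-155134899 on the plus strand of hg38.

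EFNA5 (chr5:107376894-107670937, minus strand), the other A ephrin followed, fell in both lines. It had 45.9 and 46.0 CPM at 0 h in wt MET cells, 25.6 and 26.5 CPM at 3 h, 23.5 and 22.5 CPM at 6 h, and 35.3 and 36.5 CPM at 12 h. The times did not overlap. The log2 change was -0.82 ± 0.10 at 3 h (adjusted p = 5.07e-05), -0.997 ± 0.10 at 6 h (adjusted p = 3.93e-06) and -0.36 ± 0.10 at 12 h (adjusted p = 0.0102), the last lost without replicate 1 at 12 h (0.0738). The rise from 6 to 12 h was 0.64 ± 0.10 (adjusted p = 0.000815). EFNA5 in MET∆14 cells had 26.8 and 24.2 CPM at 0 h, 18.5 and 20.1 CPM at 3 h, 17.4 and 17.4 CPM at 6 h, and 23.1 and 19.3 CPM at 12 h, and all later libraries lay below 0 h. Against 0 h the log2 change was -0.40 ± 0.10 at 3 h (adjusted p = 0.00857), -0.55 ± 0.10 at 6 h (adjusted p = 0.000521) and -0.26 ± 0.10 at 12 h (adjusted p = 0.0645). The 3 h call was lost without replicate 1 at 0 h or at 3 h (0.0901 and 0.0854) and with each line fitted alone (0.0581). The 12 h value passed without replicate 1 at 12 h (-0.40, adjusted p = 0.0116) and with at least 10 counts required in every library (0.0415).

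The B ephrins parted. EFNB2 (chr13:106489745-106535662, minus strand), the transmembrane ligand of EPHB4, rose in both lines. It had 16.1 and 23.3 CPM at 0 h in wt MET cells, 25.8 and 28.4 CPM at 3 h, 32.6 and 33.4 CPM at 6 h, and 34.6 and 30.7 CPM at 12 h. Its log2 change was 0.45 ± 0.14, 0.74 ± 0.13 and 0.73 ± 0.13 (adjusted p = 0.0337, 0.000671 and 0.000733). The 0 h libraries were far apart, and without replicate 1 at 0 h the 3 h change was 0.22 (adjusted p = 0.322). That call was also lost without either 3 h library (0.0604 at the lowest). EFNB2 in MET∆14 cells had 74.9 and 77.2 CPM at 0 h, 155 and 156 CPM at 3 h, 171 and 185 CPM at 6 h, and 129 and 114 CPM at 12 h. All libraries with HGF lay above those without. The log2 change was 1.03 ± 0.12, 1.23 ± 0.12 and 0.68 ± 0.12 at 3, 6 and 12 h (adjusted p = 8.81e-06, 9.59e-07 and 0.00038). EFNB2 was the sole member that passed the test as higher at 12 h in MET∆14 cells. Exons of a transcript on the opposite strand cover 36.4% of the EFNB2 exons in the annotation, and strand use in the counting is not given in the sources used here, so reads of that transcript cannot be told apart from EFNB2.

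EFNB1 (chrX:68829021-68842160, plus strand) fell in wt MET and rose in MET∆14 cells. The wt MET libraries had 10.1 and 9.68 CPM at 0 h, 9.41 and 7.92 CPM at 3 h, 5.69 and 6.12 CPM at 6 h, and 7.29 and 6.86 CPM at 12 h. All later libraries lay below 0 h. EFNB1 had a log2 change of -0.18 ± 0.13 at 3 h (adjusted p = 0.404), -0.74 ± 0.14 at 6 h (adjusted p = 0.00086) and -0.48 ± 0.13 at 12 h (adjusted p = 0.0121), the last lost without replicate 1 at 0 h or replicate 2 at 12 h (0.0677 and 0.0679). The step from 3 to 6 h (-0.56 ± 0.14, adjusted p = 0.0455) was lost on leaving out any of 12 libraries, the 8 of wt MET cells and the 0 h and 3 h libraries of MET∆14 cells (0.0509 to 0.424), and with DESeq2 size factors (0.0535) or the replicate block (0.0548). EFNB1 in MET∆14 cells had 208 and 216 CPM at 0 h, 310 and 295 CPM at 3 h, 301.5 and 351 CPM at 6 h, and 226 and 255 CPM at 12 h. No library with HGF fell to the range of 0 h. The log2 change was 0.51 ± 0.09 at 3 h (adjusted p = 0.000467), 0.62 ± 0.09 at 6 h (adjusted p = 5.28e-05) and 0.18 ± 0.09 at 12 h (adjusted p = 0.132). The 12 h value passed without replicate 1 at 12 h (0.26, adjusted p = 0.019). From 6 to 12 h EFNB1 and EFNB2 fell by 0.44 ± 0.09 and 0.55 ± 0.12 on the log2 scale in MET∆14 cells (adjusted p = 0.0038 and 0.0048), and both calls were lost without replicate 2 at 6 h (0.0878 and 0.0699).

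How many members passed at 12 h in MET∆14 cells depended on whether replicate 1 was kept. Without replicate 1 at 12 h, 6 members passed against 0 h instead of 2, EPHA2, EFNA1, EFNA5 and EFNB1 being added to EPHB3 and EFNB2. That fit rests at 12 h on replicate 2 alone. Replicate 2 was the shallowest library and lay nearer to a 6 h library (r = 0.987) than to replicate 1 (r = 0.982). The added calls came in no other fit that left out 1 library. Replicates 1 and 2 at 12 h in MET∆14 cells differed more than those of any other condition (chi-square per degree of freedom of 34.1, against 2.75 to 9.80 elsewhere). The part of this in the result was not tested.

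**Figure D3:**
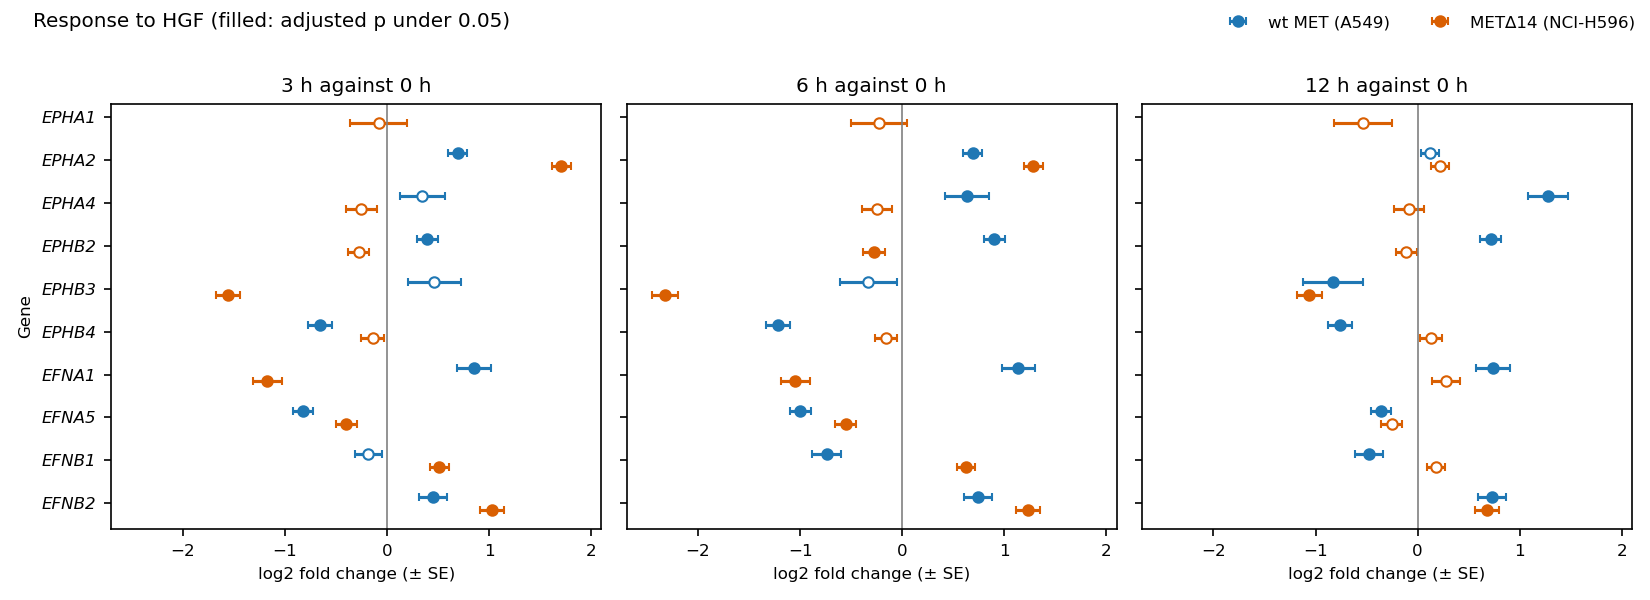
Log2 fold change of each member against 0 h at 3, 6 and 12 h (points with SE bars, wt MET in blue and MET∆14 in orange, filled where the adjusted p is under 0.05). At 6 h EPHB3 and EFNA1 lie at -2.33 and -1.05 in MET∆14 cells, and EFNA1 at 1.14 in wt MET cells, while at 12 h 2 orange points remain filled.

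The difference between the lines in the response was tested directly, as the log2 change of the MET∆14 cells minus that of the wt MET cells. 9 members passed the test over the 3 times together, beside 37.6% of all genes. EPHA1, with no count in wt MET cells, could not be compared. At single times 7 members passed at 3 h, beside 17.4% of all genes, 8 at 6 h, beside 30.2%, and 4 at 12 h, beside 24%. EFNA1 had the largest differences, -2.02 ± 0.22 at 3 h and -2.19 ± 0.21 at 6 h (adjusted p = 1.77e-05 and 3.6e-06), and the difference at 12 h did not pass (-0.46 ± 0.21, adjusted p = 0.136) except without replicate 2 at 12 h in MET∆14 cells (0.0458). EPHB3 was next with -2.02 ± 0.29 and -1.99 ± 0.32 (adjusted p = 0.000184 and 0.00023), and -0.23 ± 0.33 at 12 h (0.698). The EPHA2 response was larger in MET∆14 cells by 1.01 ± 0.13 at 3 h and 0.59 ± 0.13 at 6 h (adjusted p = 7.72e-05 and 0.00278), and differed by 0.10 ± 0.13 at 12 h (0.645).

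EPHB2, EPHA4, EPHB4 and EFNB1 still differed between the lines at 12 h. For EPHB2 the differences were -0.67 ± 0.15, -1.18 ± 0.15 and -0.83 ± 0.15 at 3, 6 and 12 h (adjusted p = 0.00514, 2.75e-05 and 0.000857). For EPHA4 they were -0.60 ± 0.27, -0.88 ± 0.26 and -1.36 ± 0.25 (adjusted p = 0.152, 0.0179 and 0.00115), the 6 h call being lost without replicate 2 at 0 h or replicate 1 at 6 h in wt MET cells (0.0543 and 0.117). EPHB4 had positive differences of 0.51 ± 0.16, 1.06 ± 0.16 and 0.89 ± 0.16 (adjusted p = 0.0378, 0.000175 and 0.000954). EFNB1 likewise had 0.69 ± 0.16, 1.36 ± 0.17 and 0.66 ± 0.16 (adjusted p = 0.00756, 2.37e-05 and 0.00811). The 3 h call of EPHB4 was lost on leaving out any of 12 libraries, all except replicate 2 at 0 h and replicate 1 at 3 h of wt MET cells and the 12 h libraries of MET∆14 cells (0.0506 to 0.188), and that of EFNB1 without replicate 2 at 3 h in wt MET cells (0.0623).

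For EFNA5 and EFNB2, which moved the same way in both lines, the differences were smaller and less secure. EFNB2 differed by 0.58 ± 0.18 at 3 h (adjusted p = 0.0385), 0.49 ± 0.18 at 6 h (0.0504) and -0.05 ± 0.18 at 12 h (0.898). The 3 h call was lost on leaving out any of 13 libraries, all except replicate 1 at 0 h of wt MET cells and the 12 h libraries of MET∆14 cells (0.0576 to 0.321), and each of those 3 exceptions brought the 6 h value past the threshold (0.00253 to 0.0239), as did DESeq2 (0.0411) and the fit without a filter on low counts (0.0188). The 12 h value was positive, at most 0.19, without replicate 1 at 0 h or at 12 h in wt MET cells or replicate 2 at 12 h in MET∆14 cells. EFNA5 differed by 0.42 ± 0.14 at 3 h (adjusted p = 0.0583), 0.45 ± 0.14 at 6 h (0.0293) and 0.10 ± 0.14 at 12 h (0.666). The 3 h value passed without either 12 h library of MET∆14 cells (0.0134 and 0.0198), with DESeq2 size factors (0.0488) and with at least 10 counts required in every library (0.0314), and the 12 h value became -0.04 without replicate 1 of them. The 6 h call was lost on leaving out any of 10 libraries, all except replicate 1 at 3 h of wt MET cells, replicate 1 at 0 h and the 3 and 12 h libraries of MET∆14 cells (0.0505 to 0.162), and in DESeq2 and without a filter on low counts (0.0841 at most). Over the 3 times EFNA5 passed (adjusted p = 0.0428), but not on leaving out any of 14 libraries, all but the 12 h libraries of MET∆14 cells (0.0695 to 0.175), nor in DESeq2 (0.0651), without a filter on low counts (0.138) or with the replicate block (0.0552). EFNB2 passed over the 3 times (0.0154), except without replicate 1 at 3 h or at 12 h in wt MET cells or replicate 2 at 3 h in MET∆14 cells (0.0504 to 0.0689).

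**Figure D4:**
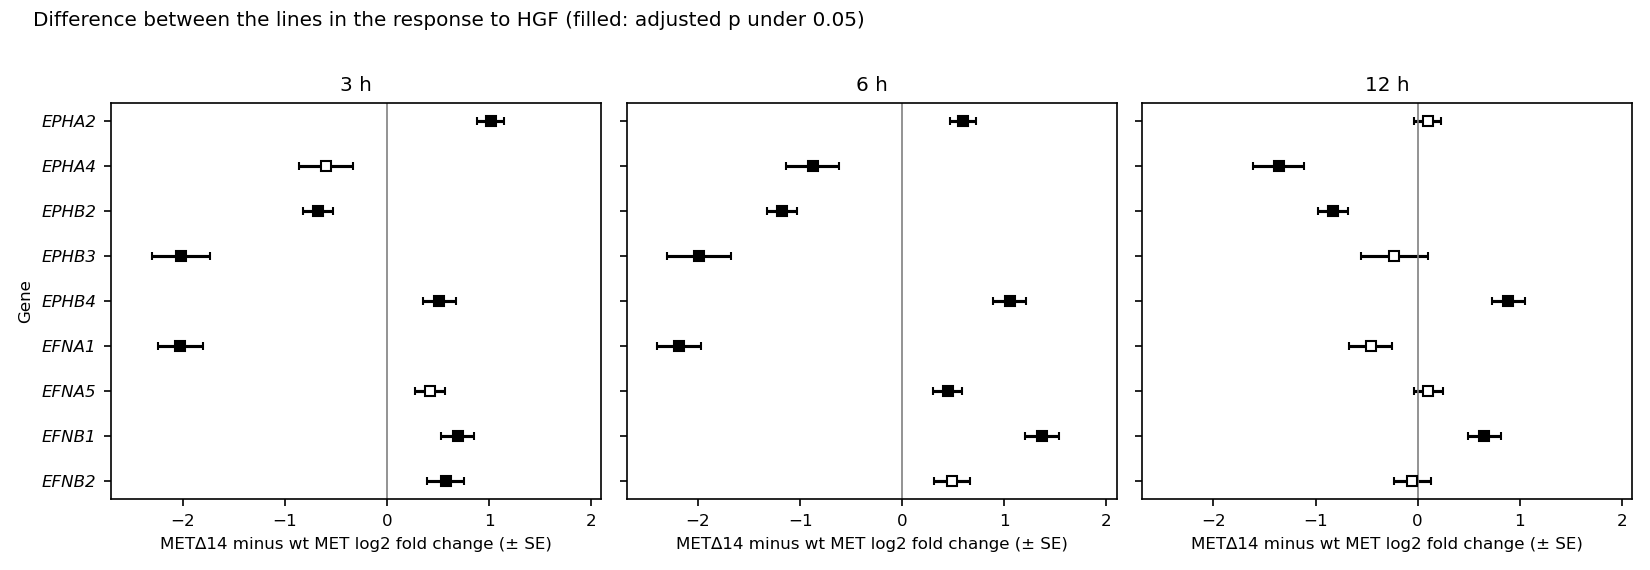
Difference between the lines in the log2 fold change against 0 h, MET∆14 minus wt MET, at 3, 6 and 12 h (squares with SE bars, filled where the adjusted p is under 0.05, EPHA1 left out). EFNA1 lies at -2.02 and -2.19 and EPHB3 at -2.02 and -1.99 at 3 and 6 h, EFNB1 reaches 1.36 at 6 h, and at 12 h the filled squares are EPHA4, EPHB2, EPHB4 and EFNB1.

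A model with line and time as added terms, the form the study's methods give, averages the 2 lines. It called 5 members for time, beside 30.6% of all genes, namely EPHA2, EFNB2, EFNA5, EPHB3 and EPHB4 (adjusted p = 0.000128, 0.000555, 0.000304, 0.00442 and 0.03). EFNA1, EFNB1, EPHB2 and EPHA4 did not pass (adjusted p = 0.436, 0.533, 0.329 and 0.149). Each had opposite signs in the 2 lines at 6 h. In MET∆14 cells the 6 h change of EPHA4 had not passed in edgeR (adjusted p = 0.201), and that of EPHB2 was lost in DESeq2 (0.0602). EPHB3 passed the added model with opposite signs at 3 h (0.46 and -1.56). Why some members did not pass was not tested.

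Over the whole family, the make-up of receptors and ligands is given as a description, without a test. The RPKM of all Eph receptor genes summed to 197 ± 15.5, 309 ± 14.6, 308 ± 7.54 and 212 ± 7.04 in wt MET cells at 0, 3, 6 and 12 h (SD, n = 2). The sum in MET∆14 cells was 125 ± 4.52, 309 ± 4.28, 233 ± 15.7 and 131 ± 0.0944. EPHA2 made up 93.7% to 96.5% of it in wt MET cells at every time. In MET∆14 cells its share went from 69.6% ± 1.43 at 0 h to 92.2% ± 0.607 at 3 h and 90.8% ± 0.313 at 6 h, and was 77.7% ± 0.455 at 12 h. The EPHB3 share ran the other way in MET∆14 cells, from 14.0% ± 0.693 at 0 h to 1.92% ± 0.271, 1.49% ± 0.0246 and 6.42% ± 0.134. EPHB4 held 9.50%, 3.49%, 4.55% and 9.94% there.

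The ephrins summed to 22.0 ± 0.606 RPKM in wt MET and 121 ± 3.46 RPKM in MET∆14 cells at 0 h, to 24.8 ± 0.548 and 159 ± 15.7 RPKM at 6 h, and to 24.8 ± 0.842 and 142 ± 9.36 RPKM at 12 h. In wt MET cells the EFNA5 share went from 36.4% ± 0.916 at 0 h to 16.2% ± 0.173 at 6 h while that of EFNA1 went from 22.5% ± 1.84 to 43.9% ± 0.432, so the leading ephrin of the 0 h libraries was EFNA5 and that of the later ones EFNA1. In MET∆14 cells EFNB1 led at every time, with 53.0% ± 2.77 at 0 h and 62.0% ± 0.566 at 6 h, and the EFNA1 share was 18.6% ± 2.16, 6.74% ± 1.25, 6.75% ± 0.480 and 19.3% ± 0.690. Shares depend on the length used. Per kilobase of the longest transcript EFNB1 held 49.2% of the ephrins and EPHA2 67.4% of the receptors in MET∆14 cells at 0 h. EFNA1 then held 51.6% of the ephrins in wt MET cells at 6 h. The leading gene of each condition stayed the same. Shares are of RNA and say nothing of protein at the membrane.

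**Figure D5:**
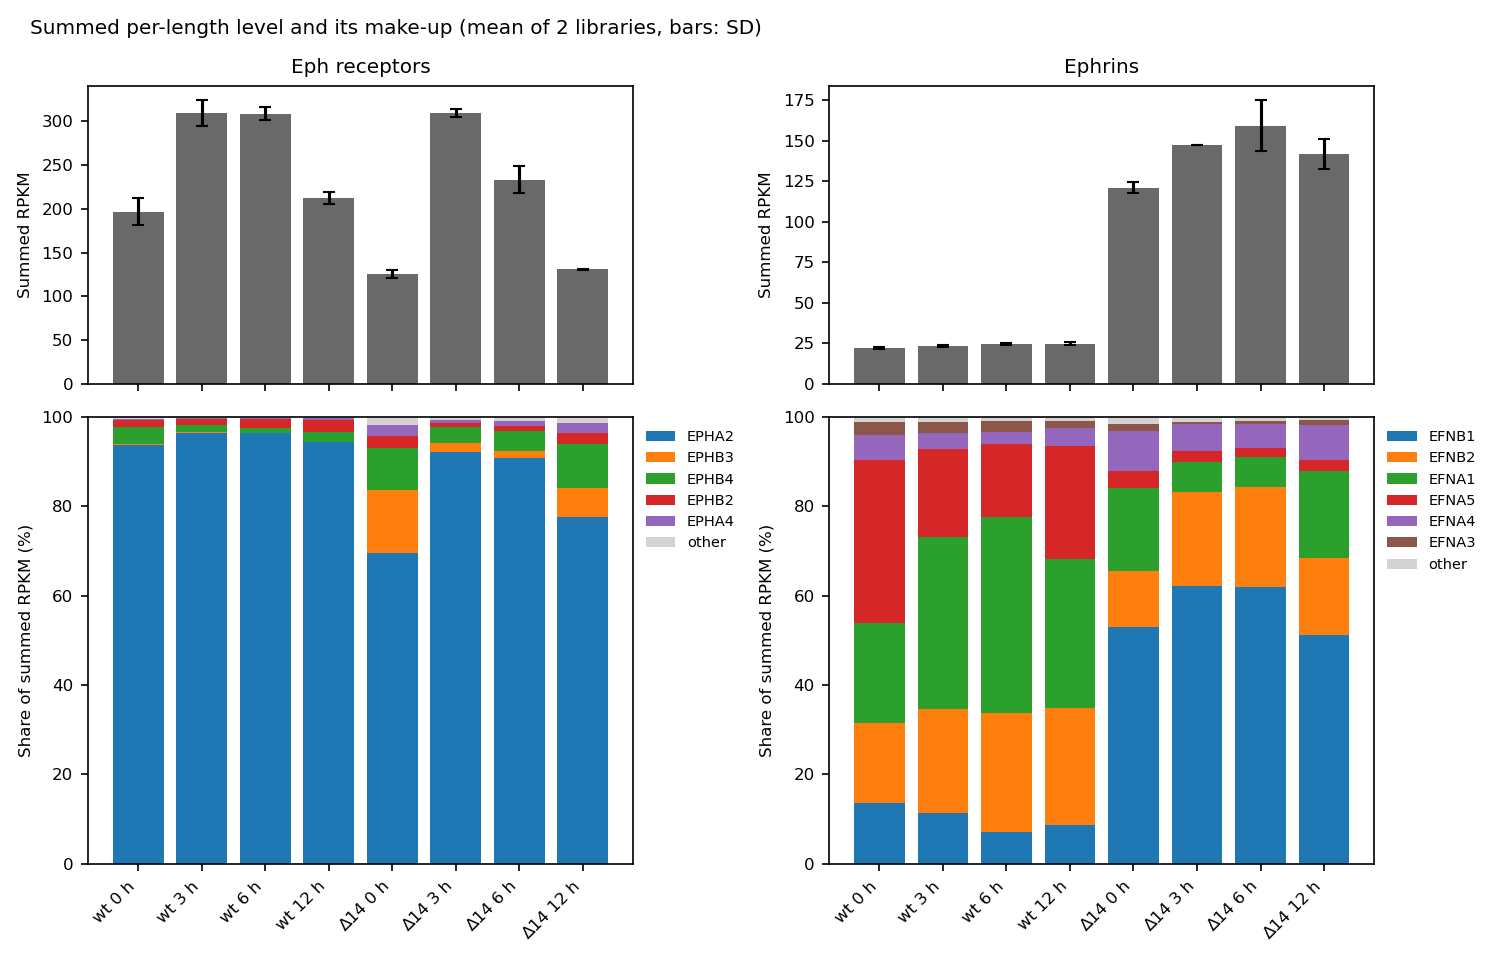
Summed RPKM of all Eph receptor genes and of all ephrin genes (top, grey bars with SD of 2 libraries) and the share of each gene in the sum (bottom, in percent, mean of 2 libraries) in the 8 conditions. EPHA2 fills 93.7% or more of every wt MET receptor bar but 69.6% of the MET∆14 bar at 0 h, and EFNB1 leads the ephrins in MET∆14 cells alone.

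The promoters of 3 members are shown, EPHA2 and EFNB2 because they rose in both lines at 3 and 6 h and EPHB3 because its fall in MET∆14 cells was the deepest of any member. Each is the 250 bases before the RefSeq start, read 5′ to 3′ on the gene's strand (GRCh38.p14). Capitals mark the letters TGACGTCA, known as the cAMP response element, and GGGCGG or its complement, known as the GC box. No annotated exon lies in these windows, at chr1:16156070-16156319 (minus), chr13:106535663-106535912 (minus) and chr3:184561535-184561784 (plus).
EPHA2: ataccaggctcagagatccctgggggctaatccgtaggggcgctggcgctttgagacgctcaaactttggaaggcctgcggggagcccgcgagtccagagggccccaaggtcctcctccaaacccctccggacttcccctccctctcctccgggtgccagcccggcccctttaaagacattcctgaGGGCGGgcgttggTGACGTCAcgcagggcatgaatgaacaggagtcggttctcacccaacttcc
EFNB2: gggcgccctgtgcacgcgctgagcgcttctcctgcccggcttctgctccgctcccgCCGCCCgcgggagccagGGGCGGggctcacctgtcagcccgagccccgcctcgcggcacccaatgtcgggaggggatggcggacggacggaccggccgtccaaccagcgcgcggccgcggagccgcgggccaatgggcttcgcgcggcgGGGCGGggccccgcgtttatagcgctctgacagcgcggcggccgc
EPHB3: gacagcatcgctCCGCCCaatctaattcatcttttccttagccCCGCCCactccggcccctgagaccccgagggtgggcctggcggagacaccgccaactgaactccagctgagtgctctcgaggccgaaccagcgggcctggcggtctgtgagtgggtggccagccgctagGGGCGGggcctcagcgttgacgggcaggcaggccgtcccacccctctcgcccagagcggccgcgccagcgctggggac
The 10 members have 12 windows of 300 bases (250 before to 50 after a start) among 35116 promoters. On both strands, none of the 12 holds TGANTCA (AP-1, in 7.71% of all promoters), TGTTTAC (forkhead, 3.42%), CACGTG (E-box, 7.26%), CCGGAA (ETS, 17.2%) or TTCNNNGAA (STAT, 7.66%). The other 2 motifs were chosen after these letters had been read. TGACGTCA is in the EPHA2 window, at bases -51 to -44 from the start, and in 1.85% of all promoters. GGGCGG is in a window of all 10 members and in 45% of all promoters, the first counted by gene and the second by promoter. The letters G and C made up 43% to 83% of the member windows, against a median of 58.7% over all promoters. The EPHB2 windows nearly coincide. These are matches of letters, and binding was not measured.

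Of the 12 Eph and ephrin genes outside the members, EFNA4 was the most abundant per length in MET∆14 cells, at 10.9 ± 0.996 RPKM at 0 h, above the members EFNA5, EPHB2, EPHA4 and EPHA1. 8 of them exceeded 3 counts in some library of wt MET and 11 in some library of MET∆14 cells, EPHA8 in neither, and 9 were tested. Over the 3 times 1 of the 9 was called in wt MET cells, beside 40.3% of all genes. In wt MET cells EPHA10, a receptor without kinase activity, was the sole one called over the 3 times together, going from 4.70 and 3.75 CPM at 0 h to 2.62 and 2.56 CPM at 12 h (-0.70 ± 0.21, adjusted p = 0.0175, and 0.0788 to 0.139 without replicate 1 at 0 h or either 12 h library, 0.0986 in DESeq2 and 0.0528 without a filter on low counts). Its calls over the 3 times (adjusted p = 0.0462) and at 6 h (-0.60 ± 0.21, adjusted p = 0.0387) were lost on leaving out any of 13 libraries, all except replicate 2 at 0 h of wt MET cells and the 12 h libraries of MET∆14 cells (0.0545 to 0.24), and in DESeq2 (0.265 and 0.184). EFNB3 also passed at 6 h in wt MET cells (-1.72 ± 0.53, adjusted p = 0.0203), on 14 and 7 counts at 0 h and 3 and 4 counts at 6 h, close to the floor, and was lost without replicate 1 at 0 h or either 6 h library (0.0589 to 0.293). 4 were called in MET∆14 cells, all lower, beside 54.1% of all genes, and 2 to 4 on leaving out a library. EFNA3 alone of them kept its call over the 3 times in DESeq2, where EPHA6, EPHB1 and EFNB3 had adjusted p of 0.079, 0.166 and 0.162, and EFNB3 had 0.0521 with the replicate block. EFNA3 had 4.50 and 3.23 CPM at 0 h and 1.42 and 1.54 CPM at 6 h (-1.36 ± 0.28, adjusted p = 0.0011), and 2.68 and 3.43 CPM at 12 h. EPHA6 fell by 1.51 ± 0.37 at 12 h (adjusted p = 0.00636), lost without replicate 1 at 12 h (0.0602). EPHB1 fell by 2.46 ± 0.65 at 6 h (adjusted p = 0.00723), on 16 and 22 counts at 0 h and 1 and 6 counts at 6 h, close to the floor. Without replicate 1 at 6 h the EPHB1 change was -2.03 and the call was lost. Its call over the 3 times was lost without either 0 h library. EFNB3 fell by 0.90 ± 0.25 at 12 h (adjusted p = 0.0106), lost without replicate 1 at 0 h (0.0941).

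EFNA3 was also the one gene of the 9 tested whose response differed between the lines (adjusted p = 0.0147), beside 37.6% of all genes. Like EFNA1, it was at its lowest at 3 and 6 h in MET∆14 cells. The genes lie beside each other on the plus strand of chromosome 1, EFNA4 at chr1:155063737-155069553, EFNA3 at chr1:155078837-155087538 and EFNA1 after them. EFNA4 passed at no time in MET∆14 cells (13.6, 11.2, 11.1 and 13.8 CPM on average, adjusted p = 0.385 over the 3 times). A readthrough transcript of EFNA4 and EFNA3 covers 43.9% of the EFNA3 exons, so counts of these genes may be split. EPHA5, EPHA3 and EPHB6 passed in neither line over the 3 times, and EPHA7 and EFNA2 were too low to be tested. At 0 h EPHA5 had 1.39 and 5.37 CPM on average in wt MET and MET∆14 cells, EPHA3 0 and 0.979 CPM, EPHB6 0.142 and 0.444 CPM, EPHA7 0.0715 and 0.289 CPM, and EFNA2 0.0707 and 0.140 CPM.

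39 genes of the pathway inside the cell, chosen for known roles as adaptors, exchange factors, kinases and phosphatases of Eph and ephrin signalling, were read as a list, and 38 were tested. Over the 3 times 19 passed in wt MET cells (12 higher on average, 7 lower), beside 40.3% of all genes, and 21 in MET∆14 cells (13 higher, 8 lower), beside 54.1%. The response of 19 differed between the lines, beside 37.6%. Their median change was 0.06 in wt MET and 0.05 in MET∆14 cells, against -0.05 and -0.05 over all genes. VAV3, a guanine nucleotide exchange factor that links Eph receptors to Rac, fell the most. In MET∆14 cells it had 34.5 and 30.1 CPM at 0 h, 2.44 and 2.32 CPM at 3 h, 1.496 and 1.59 CPM at 6 h, and 5.75 and 6.12 CPM at 12 h. Its log2 change was -3.76 ± 0.22, -4.37 ± 0.23 and -2.45 ± 0.20 (adjusted p = 1.97e-08, 3.89e-09 and 4.88e-07). VAV3 fell in wt MET cells to a lesser degree, by 1.35 ± 0.27 at 6 h (adjusted p = 0.00121), and its call over the 3 times was lost without replicate 1 at 0 h (0.0507).

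GRB7, an adaptor that binds phosphorylated receptors, fell in both lines, by 1.84 ± 0.19 at 6 h in MET∆14 cells (15.2 and 14.6 CPM at 0 h, 3.67 and 4.54 CPM at 6 h, adjusted p = 2.07e-06) and by 1.09 ± 0.20 in wt MET cells (10.1 and 9.89 CPM, 3.93 and 5.45 CPM, adjusted p = 0.000622). RGS3, a regulator of G protein signalling that binds B ephrins, fell by 1.10 ± 0.16 at 6 h in MET∆14 cells (23.98 and 21.9 CPM to 11 and 10.5 CPM, adjusted p = 5.89e-05) and by 1.01 ± 0.20 in wt MET cells (7.88 and 6.86 CPM to 4.29 and 2.96 CPM, adjusted p = 0.0014). The scaffold CNKSR1 was the partner with the largest rise in wt MET cells, 1.82 ± 0.41 at 6 h (adjusted p = 0.00294), but it rested on 6 and 13 counts at 0 h and was lost without replicate 1 at 0 h (0.0508, and 0.129 over the 3 times).

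The genes whose pattern was most like that of 3 members were sought by Pearson's r of line-centred log2 CPM over the 16 libraries among 9638 genes, as a description. EFNA5, the member with the largest F statistic in wt MET cells, was closest to S100PBP (r = 0.972), ANKRD33B (0.967) and PIK3C2B (0.966). EPHA2, with the largest F in MET∆14 cells, was closest to THBS1 (0.975), CD3EAP (0.972) and SLC20A1 (0.972). EFNA1, with the largest F for the difference between the lines, was closest to KIAA0895 (0.951), KCNK6 (0.912) and ADNP (0.885). The names depend on the measure. By rank correlation (Spearman) EPHA2 was closest to SRF (0.982), HBEGF (0.965) and THBS1 (0.965). EFNA1 was then closest to KIAA0895 (0.921), PGM2L1 (0.918) and WNT3 (0.906), and EFNA5 to SOX12 (0.959), S100PBP (0.953) and ANKRD33B (0.953). The libraries share their times and lines, and many genes follow the same time course.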

How the data were processed

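The authors' deposited table holds read counts per gene for 16 libraries, as whole numbers. The study's methods give adapter trimming and mapping to hg38, and the submitters' processing notes name STAR 2.5.0 and RSEM 1.3.2 without their role. If RSEM made these counts they are rounded estimates. Annotation and strand use are not given in the sources used here, and reads without molecular identifiers may hold PCR copies.

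Groups came from the sample titles, whose A549 is written H549 in the column names. The counts were tested with edgeR 4.0.16 (R 4.3.3, quasi-likelihood F test with robust fit, TMM scaling, genes kept at a minimum count of 10 and a total of 15), with 1 coefficient per condition over all 16 libraries, so that all conditions share their estimate of the spread. Benjamini-Hochberg adjustment ran over all 15067 genes tested, with a threshold of 0.05. SE is the log2 change divided by the root of F. The steps were tested on simulated data. RPKM uses the union of exons in GENCODE v44, which matched 42275 of 42351 genes. Promoters are from RefSeq. Figures were drawn with matplotlib 3.10.9.

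The members and lists were chosen with earlier results of these data known. Named were all members, every other family gene over 3 counts in some library, and the 3 partners with the largest mean response in each line among those called. Alternatives were DESeq2 1.42.0, its size factors, other filters, a replicate block, each line alone, and each library left out. Libraries with amplified wt MET were not analysed here. Depth sets the precision. With 3 counts as the floor, 0.1285 to 0.278 CPM could not be told from 0, which covers counting error only.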

Additional observations from a re-analysis of the deposited data

Results flagged for a closer look

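For 9 of the 10 members the response to HGF differed between MET∆14 and wt MET cells in edgeR's test of the difference over the 3 times, which 37.6% of all genes also passed. The adjusted p was 3.08e-06 for EFNA1, 7.38e-05 for EPHA2, 7.45e-05 for EPHB3, 0.000137 for EPHB2, 0.000145 for EFNB1 and 0.000492 for EPHB4. It was 0.00369 for EPHA4, 0.0154 for EFNB2 and 0.0428 for EFNA5. The EFNA5 call was lost on leaving out any of 14 libraries, in DESeq2, without a filter on low counts and with the replicate block (0.0552 to 0.175), and the EFNB2 call on leaving out any of 3 libraries (0.0504 to 0.0689). EFNA1 at 6 h had a log2 change of 1.14 in wt MET and -1.05 in MET∆14 cells, and EFNB1 had -0.74 and 0.62. EPHB3 had a log2 change of -2.33 at that time in MET∆14 cells, and rested on 14 to 33 counts a library in wt MET cells. Each line is 1 cell line with its own level before HGF, and the part of MET status in these differences cannot be told apart from that of the line.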

How the results depend on the processing

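Of 457 counts of called genes under an alternative, 420 were within 1.5 times the reported one. Of 2315 member fold changes under alternatives, 2177 kept their direction and side of the threshold. Other family genes called in wt MET cells went from 1 to 0 with DESeq2 size factors, in DESeq2, without a filter, with the replicate block and with each line alone, and those in MET∆14 cells from 4 to 1 in DESeq2 and with 10 counts in every library. Leaving out 1 library gave these ranges of members called. In wt MET cells they were 4 to 6 at 3 h, 7 to 8 at 6 h, 6 to 8 at 12 h, 0 to 3 from 3 to 6 h, 2 to 5 from 6 to 12 h and 8 to 9 over the 3 times. In MET∆14 cells they were 5 to 7, 6 to 8, 2 to 6, 1 to 2, 3 to 7 and 6 to 7. They were 9 to 9 between the lines at 0 h, 7 to 9 for the difference of response and 4 to 5 in the added model. For other family genes they were 0 to 2, 2 to 4 and 1 to 1, and for partners 16 to 25, 16 to 28 and 12 to 28, in wt MET, in MET∆14 and for the difference. The sign turned for EPHB2 between the lines (0.0489 with 10 counts in every library). It also turned on leaving out 1 library for log2 changes that had not passed: EPHA1 in MET∆14 cells at 3 h (range -0.191 to 0.0386) and 6 h (-0.644 to 0.0319), EPHB3 in wt MET cells at 6 h (-0.776 to 0.011), and the 12 h differences of EFNA5 (-0.0444 to 0.213) and EFNB2 (-0.342 to 0.19). The replicate number was shared by the labels but not stated to mark a common origin, and deviations of same-numbered libraries correlated from -0.159 to 0.111 over 28 pairs of conditions. With the replicate block EFNB1 lost its call from 3 to 6 h in wt MET cells (-0.56, adjusted p = 0.0548) and EFNA5 its difference over the 3 times. It also ended the calls of EFNB3 over the 3 times in MET∆14 cells (0.0521), EPHA10 at 6 h and over the 3 times in wt MET cells (0.0547 and 0.0687) and CNKSR1 at 12 h in wt MET cells (0.0517). The cause of these changes was not tested.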
